A study of Homo sapiens with 10 samples.

Results

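Oxidative phosphorylation is the last stage of respiration, and its subunits are listed here as they were transcribed in human microglia grown in the mouse brain. The genes were taken by name, as human genes whose symbol begins with NDUFA, NDUFB, NDUFC, NDUFS or NDUFV, with COX4 to COX8, UQCR or ATP5, as SDHA to SDHD, and as the MT- genes of the respiratory complexes. A gene was kept when at least 1% of human cells held a UMI of it, a UMI being 1 counted RNA molecule. Of 112 genes with such names 103 were kept, out of 11738 genes detected as widely and 36601 human genes in the reference. They comprised 79 subunits encoded in the nucleus, 13 encoded in the mitochondrial genome, 8 assembly factors of complex I, the ATP synthase inhibitor ATP5IF1 and 2 non-coding neighbours, NDUFV2-AS1 and NDUFA6-DT, that share part of a name.

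Microglia were derived from the H9 (WA09) human embryonic stem cell line, a single line, and transplanted into immunodeficient App NL-G-F mice, which carry a mutated, humanised App allele and build amyloid plaques. All hosts were Rag2 tm1.1Flv, Il2rg tm1.1Flv, Csf1 tm1(CSF1)Flv and App tm3.1Tcs, so that the controls too lack lymphocytes and make human CSF1. FIRE mice carry in addition the Csf1r em1Bdes deletion of the FIRE enhancer and have no microglia of their own, while the hosts called FIRE-intact can make theirs, which were depleted before transplantation with BLZ945, an inhibitor of the CSF1 receptor. From an age of 4 months mice were injected every week for 8 weeks with 10 mg/kg of Lecanemab, an antibody against amyloid-β, or of a human IgG1 control. Human cells were sorted, marked with hashtag antibodies by mouse and sequenced in 5 droplet libraries that form 3 pools of mice. Libraries 1 and 2 held the mice of pool 1, library 3 those of pool 2, and libraries 4 and 5 those of pool 3. The labels name 27 mice, of which AB09 had 1 cell and entered no test. The remaining 26 were 6 FIRE mice given Lecanemab, 5 FIRE mice given IgG1, 7 FIRE-intact mice given Lecanemab and 8 given IgG1, and every pool held mice of all 4 groups.

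Electrons from NADH enter the respiratory chain at complex I and those from succinate at complex II, pass through complex III and cytochrome c to complex IV, and reduce oxygen there. Complexes I, III and IV pump protons across the inner membrane, and ATP synthase, complex V, uses their return to make ATP. The mitochondrial genome encodes core subunits of complexes I, III, IV and V and none of complex II, and all other subunits are imported from the cytosol, so each of these complexes is built from the products of both genomes. Microglia use both glycolysis and respiration, and the balance is known to shift when they become activated.

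The cells carried the identity given by the labels. Over the 26 mice the summed level of 7 homeostatic microglia markers was 5884 to 10661 CPM, the counts of a gene scaled to 1000000 human UMIs, T cell markers reached at most 0.256 CPM and neuronal markers 3.32 CPM. Monocyte and neutrophil markers summed to 4.40 to 368 CPM, with 2 of 5 above 1 CPM over all mice, and 8 border macrophage markers to 1011 to 2955 CPM. The sums were 165 to 501 CPM for 3 astrocyte markers, 66.5 to 142 CPM for 3 oligodendrocyte markers and 22.3 to 44.8 CPM for 3 endothelial markers, with 1 of 3 above 1 CPM in each list (SLC1A3, MBP and PECAM1) and the astrocyte marker AQP4 at 0. A human cell had at least 1000 human UMIs and at most 5% mouse UMIs, and 49989 of 57894 such cells were assigned to a single mouse, 871 to 3616 per mouse. Cells had a median of 3429 human UMIs, from 2618 to 4071 by library. Between 14 and 49 barcodes were shared by each pair of libraries. In barcodes of mouse cells, whose human UMIs are taken here as free RNA, the mitochondrial-encoded members made up 3.59 to 6.76% of human UMIs and the nuclear ones 1.60 to 2.16%, so both are part of that background, at a median of 34 to 154 human UMIs per mouse cell by library. How these UMIs arose was not tested. The labels of library 4 conflict with each other, so its mice were placed through library 5.

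Mitochondrial-encoded members were the larger part of respiratory chain transcripts in every mouse. They took 6.67% ± 1.65 of human UMIs (SD, n = 26 mice), with a lowest mouse at 3.36%, a median of 6.75% and a highest mouse at 8.90%, whereas all 79 nuclear members together took 1.59% ± 0.312 (lowest 1.15%, median 1.65%, highest 2.12%). Complex IV led among the mitochondrial-encoded members with a mean of 3.25% of human UMIs, ahead of complex I (1.59%), complex V (1.27%) and complex III, whose share of 0.564% is MT-CYB alone. Among the nuclear members complex V (0.491%) and complex I (0.485%) were highest, followed by complex IV (0.385%), complex III (0.208%) and complex II (0.0248%). These are sums of UMIs from the 3′ ends of transcripts, so they count molecules and were not divided by length.

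Single genes covered a wide range of levels. MT-CO1, the catalytic subunit of cytochrome c oxidase, had a mean of 14904 CPM over 26 mice after scaling by the trimmed mean of M-values (TMM), and a UMI in 99.8% of cells. MT-ATP6, part of the proton path of ATP synthase, followed at 12563 CPM, then MT-CO3 (9431), MT-CO2 (8171), MT-ND3 (6946), MT-CYB (5625) and MT-ND4 (3915). MT-ND1 stood at 2026 CPM, MT-ND2 at 1362, MT-ND5 at 1253, MT-ND4L at 364, MT-ATP8 at 128 and MT-ND6 at 82.9 CPM. The highest nuclear member was ATP5F1E, the epsilon subunit of the catalytic head of ATP synthase, at 1320 CPM with a UMI in 85.6% of cells. Within their complexes COX7C (689 CPM), UQCRB (546), NDUFA13 (337) and SDHC (80.4) were highest, and ATP5MC1 (92.4), COX6A2 (5.46), UQCRC1 (46.7), NDUFA9 (46.5) and SDHA (35.5) lowest.

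Where a subunit has tissue-specific copies, microglia held the general form. COX4I1 stood at 559 CPM and COX4I2 had no UMI in any human cell. COX6A1 stood at 302 CPM against 5.46 CPM for COX6A2, the form known from heart and skeletal muscle, which passed the 1% limit at 1.35% of cells. COX7A2 (239 CPM) and COX7A2L (85.2), a factor that joins complexes III and IV, were members, and the muscle form COX7A1 was detected in 0.074% of cells. COX6B1 (375 CPM), COX7B (224), COX8A (272) and NDUFA4 (389), a subunit of complex IV in spite of its name, were likewise kept, while COX6B2 (0.057% of cells), COX7B2 (0), COX8C (0.031%) and NDUFA4L2 (0.029%) were not. Of the 3 genes for the same proton-carrying c subunit, ATP5MC2 had 502 CPM, ATP5MC3 236 and ATP5MC1 92.4. Just inside the limit lay COX6A2, NDUFA6-DT (1.40%) and NDUFV2-AS1 (1.89%), and just outside it UQCRHL (0.68%), a near copy of the member UQCRH with which it may share reads, NDUFB2-AS1 (0.55%) and ATP5MGL (0.22%).

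**Figure D1:**
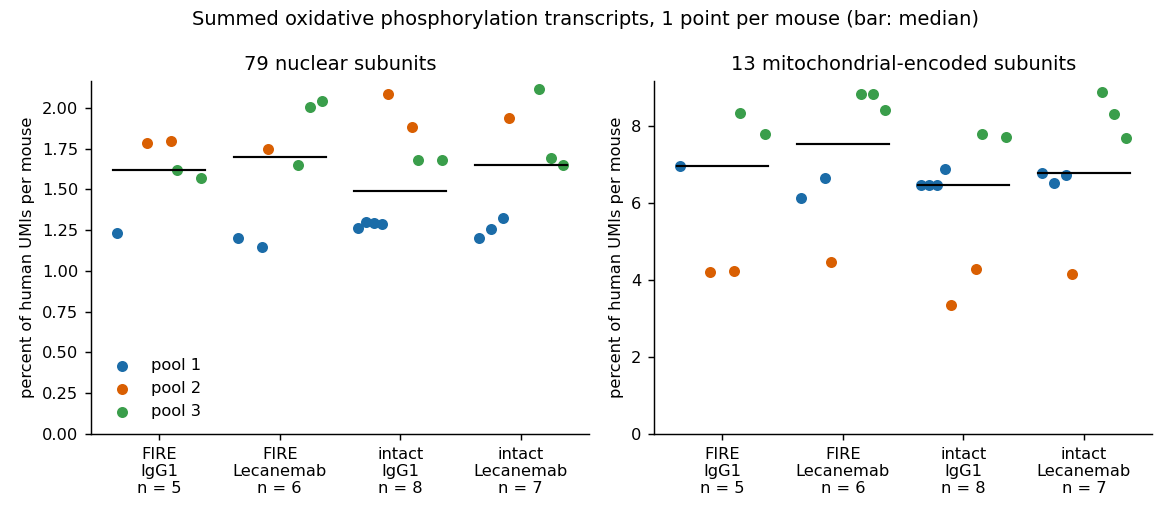
Share of human UMIs (percent, y axis) taken by the nuclear members (1 panel) and by the mitochondrial-encoded members (the other panel) in each of 26 mice, by group on the x axis and coloured by pool, with a bar at each group's median. Points of a colour lie together across groups, and the mitochondrial-encoded shares of the 3 pools do not overlap (3.36 to 4.48% in pool 2, 6.14 to 6.97% in pool 1, 7.69 to 8.90% in pool 3).

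The mitochondrial genes lie next to each other on a circular genome and in part on top of each other, which bears on how their UMIs can be told apart. In GRCh38, 12 of the 13 genes lie on the plus strand and MT-ND6 (chrM:14149-14673) alone on the minus strand. MT-ATP8 (chrM:8366-8572) and MT-ATP6 (chrM:8527-9207) share 46 bases, and MT-ND4L (chrM:10470-10766) and MT-ND4 (chrM:10760-12137) share 7, and each pair is carried on 1 RNA, so a read within the shared bases belongs to both genes. Both junctions are shown, from the reference, since MT-ATP8 and MT-ND4L differed between pools 2 and 1 by more than the genes they overlap, with the shared bases in capitals and 15 bases on either side in lower case.
MT-ATP8 and MT-ATP6, chrM:8512-8587, plus strand: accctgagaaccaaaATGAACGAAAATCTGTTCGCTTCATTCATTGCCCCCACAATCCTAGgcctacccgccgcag
MT-ND4L and MT-ND4, chrM:10745-10781, plus strand: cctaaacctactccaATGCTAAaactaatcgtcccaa
The capitals of each line begin with ATG, where the reading frame of the downstream gene starts. MT-ND6 overlaps no other member.

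Whether Lecanemab changes respiratory chain transcripts was asked first in FIRE mice, where all microglia are human. The nuclear share of human UMIs was 1.23, 1.79, 1.62, 1.79 and 1.57% in the 5 IgG1-treated mice (AB16, AB56, AB79, AB86 and AB90) and ran from 1.15% over a median of 1.70% to 2.04% in the 6 Lecanemab-treated mice. The mitochondrial-encoded share was 6.97, 4.21, 8.34, 4.22 and 7.80% after IgG1 and ran from 4.48% over 7.54% to 8.84% after Lecanemab. In both measures the groups overlapped. The lowest mitochondrial-encoded shares in both groups were those of pool 2.

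No member was called between Lecanemab and IgG1 in FIRE mice (0 of 103, beside 0.0% of the 13699 genes tested, edgeR quasi-likelihood test with pool as a covariate and Benjamini-Hochberg adjustment over all genes at 0.05). DESeq2 and limma-voom called 0 members too, and at an unadjusted p under 0.05 edgeR counted 1075 of all genes, 4 of 79 nuclear and 2 of 13 mitochondrial-encoded members. The fitted differences of the members were mostly above 0. Their median on the log2 scale was 0.14 over the nuclear members, 75 of 79 of them positive, and 0.11 over the mitochondrial-encoded ones, 11 of 13 positive, beside -0.00091 over all genes. By complex the nuclear medians were 0.10 for complex I (35 of 37 positive), 0.064 for complex II (3 of 4), 0.15 for complex III (8 of 8), 0.18 for complex IV (12 of 13) and 0.15 for complex V (17 of 17). Members of 1 mouse vary together, so these counts describe the fit and are not independent observations.

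The members with the smallest p of each complex show how the groups lay. SDHC, which anchors succinate dehydrogenase in the membrane, had 75.1, 82.7, 69.8, 79.3 and 72.0 CPM in the 5 IgG1-treated FIRE mice and 72.5, 83.1 and 93.5 CPM (lowest, median and highest) in the 6 Lecanemab-treated ones. The difference was 0.19 ± 0.075 on the log2 scale (SE, edgeR adjusted p = 0.611), and the groups overlapped. NDUFB3, a small subunit of the membrane arm of complex I, had 72.1, 141, 129, 143 and 137 CPM after IgG1 and 66.4, 146 and 228 CPM after Lecanemab, a log2 difference of 0.29 ± 0.12 (edgeR adjusted p = 0.611). MT-ND6, the subunit of complex I encoded on the minus strand, had 114, 18.4, 84.9, 16.2 and 78.2 CPM after IgG1 and 21.7, 114 and 122 CPM after Lecanemab. Its lowest mice were those of pool 2 in both groups, and the difference fitted with the pool was 0.28 ± 0.12 (edgeR adjusted p = 0.611). UQCR11 of complex III (0.28 ± 0.13), COX6A1 of complex IV (0.24 ± 0.12) and ATP5MD of complex V (0.27 ± 0.12) gave log2 differences of like size at edgeR adjusted p of 0.618, 0.654 and 0.611. The median SE of the fitted differences was 0.096 over the members, and no difference named here passed the adjustment. Between mice of a group and pool, the SD of the log2 share was 0.107 for the nuclear and 0.0871 for the mitochondrial-encoded members.

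The positive differences in FIRE mice were largest in pool 3. There the nuclear share was 1.57 and 1.62% in 2 IgG1-treated mice and 1.65, 2.00 and 2.04% in 3 Lecanemab-treated mice, with no overlap, and the median log2 difference over nuclear members was 0.30 with 78 of 79 positive. In pool 1, with 1 mouse given IgG1 and 2 given Lecanemab, the median was -0.092 with 9 of 79 positive, and in pool 2, with 2 and 1, it was 0.018 with 51 of 79 positive. The mitochondrial-encoded members gave medians of -0.17, 0.17 and 0.28 in pools 1, 2 and 3, with 1, 13 and 12 of 13 positive. The direction thus differed between pools, no test was run within a pool, and without AB93 the nuclear median over all pools was 0.094 in place of 0.14, with 0 nuclear members at an unadjusted p under 0.05. Without AB57, the only Lecanemab-treated FIRE mouse of pool 2, the median was 0.19 and the unadjusted count 21.

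In FIRE-intact mice the nuclear members lay around 0. The nuclear share was 1.26, 1.49 and 2.08% (lowest, median and highest) in 8 IgG1-treated mice and 1.2, 1.65 and 2.12% in 7 Lecanemab-treated mice, and the mitochondrial-encoded share 3.36, 6.48 and 7.79% against 4.15, 6.78 and 8.90%. The groups overlapped in both. No member was called (0 of 103, beside 0.0% of genes by edgeR, with 0 members by DESeq2 and limma-voom, and 652 genes, 1 nuclear and 1 mitochondrial-encoded member at an unadjusted p under 0.05). The median log2 difference was 0.010 over the nuclear members, 42 of 79 positive, and it changed sign with single mice, at -0.044 without AB41 and 0.054 without AB38. All 13 mitochondrial-encoded members were positive, with a median of 0.10, and MT-ND2 had the smallest p among them. It had 701, 1257 and 1676 CPM after IgG1 and 770.4, 1353 and 1938 CPM after Lecanemab, overlapping, with a log2 difference of 0.13 ± 0.059 (edgeR adjusted p = 1). NDUFS3, a core subunit of the arm of complex I that takes up electrons, had 66.5, 79.9 and 126 CPM after IgG1 and 61.5, 71.8 and 111 CPM after Lecanemab (-0.14 ± 0.063, edgeR adjusted p = 1). COX6A2 had 1.28, 3.32 and 10.3 CPM and 3.51, 4.19 and 12.8 CPM, a log2 difference of 0.56 ± 0.28 (edgeR adjusted p = 1), with the widest SE of the members named here. UQCRB (-0.13 ± 0.10), SDHA (-0.067 ± 0.060) and ATP5F1D (-0.071 ± 0.086), which had the smallest p of complexes III, II and V, differed by less. Within pools 1, 2 and 3 the nuclear medians were -0.016, -0.084 and 0.14, and the mitochondrial-encoded ones 0.037, 0.094 and 0.19, so the mitochondrial-encoded median was positive in each pool and the nuclear one in pool 3 alone.

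Taking the difference of both Lecanemab effects, or their mean, called no member either (0 of 103 each, beside 0.0% of genes in both by edgeR, with 646 and 1099 genes at an unadjusted p under 0.05, and 0 members by DESeq2 and limma-voom). For the difference (FIRE minus FIRE-intact) the nuclear median was 0.14 with 75 of 79 positive and the mitochondrial-encoded median 0.0086, and COX6A2 had the largest difference of the members with the smallest p of each complex, -0.79 ± 0.43 (edgeR adjusted p = 0.935). NDUFA8 (0.21 ± 0.12), UQCR10 (0.22 ± 0.12), SDHC (0.16 ± 0.097), ATP5MG (0.22 ± 0.14) and MT-ND1 (-0.15 ± 0.093) had the smallest p elsewhere, all at an edgeR adjusted p of 0.935. For the mean of both genotypes the medians were 0.068 (75 of 79 positive) and 0.10 (13 of 13), with 1 nuclear and 3 mitochondrial-encoded members at an unadjusted p under 0.05. MT-ND6 had the smallest p, with a log2 difference of 0.20 ± 0.079 (edgeR adjusted p = 0.534), followed by SDHC at 0.11 ± 0.049 and MT-ND4 at 0.14 ± 0.063 (both at an edgeR adjusted p of 0.593).

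Host genotype was compared within each treatment, with the IgG1-treated FIRE mice shared between this comparison and the first. After IgG1 the nuclear members were mostly lower in FIRE than in FIRE-intact mice, by a median of -0.16 on the log2 scale with 5 of 79 positive, while the mitochondrial-encoded members had a median of 0.023 with 10 of 13 positive. None was called (0 of 103, beside 0.0% of genes by edgeR, and 0 members by DESeq2 and limma-voom), and 25 nuclear and 0 mitochondrial-encoded members were at an unadjusted p under 0.05, among 1909 genes. ATP5PO, which links the head of ATP synthase to its stalk, had 135, 229, 181, 223 and 167 CPM in the 5 FIRE mice and 144, 174 and 331 CPM in the 8 FIRE-intact mice (lowest, median and highest), a log2 difference of -0.26 ± 0.085 (edgeR adjusted p = 0.214). UQCRB, a subunit near the ubiquinone site of complex III, had 387, 537, 537, 634 and 556 CPM against 394, 511 and 1213 CPM (-0.33 ± 0.11, edgeR adjusted p = 0.217). COX7C, a small subunit of complex IV, had 457, 699, 703, 771 and 647 CPM against 462, 628 and 1439 CPM (-0.32 ± 0.11, edgeR adjusted p = 0.231). Each of these groups overlapped, and the highest FIRE-intact value of UQCRB and COX7C, 1213 and 1439 CPM, was that of AB38 in pool 2. Without AB38 the nuclear median was -0.11 and 8 nuclear members were at an unadjusted p under 0.05, and without AB53 37 were. Without the pool term the nuclear median was 0.020, and without the filter on low counts 281 genes were called, among them 1 member, UQCRB, which was lower. NDUFA6 (-0.25 ± 0.091), SDHD (-0.14 ± 0.055) and MT-ND1 (0.11 ± 0.068) had the smallest p of complexes I and II and of the mitochondrial-encoded members. The nuclear medians within pools 1, 2 and 3 were -0.090, -0.23 and -0.069.

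After Lecanemab the genotypes lay closer. The nuclear median was -0.028 with 16 of 79 positive, the mitochondrial-encoded median 0.022, and 0 of 103 members were called, beside 0.0219% of genes by edgeR, 0.0073% higher and 0.0146% lower (DESeq2 and limma-voom called 0 members, and 932 genes but no nuclear member had an unadjusted p under 0.05 by edgeR). MT-ND6 (0.19 ± 0.10, edgeR adjusted p = 0.795) and NDUFA9 (-0.12 ± 0.071, edgeR adjusted p = 0.805) had the smallest p of the mitochondrial-encoded members and of complex I. SDHA (0.097 ± 0.063), UQCRB (-0.15 ± 0.11), COX4I1 (-0.077 ± 0.083) and ATP5PO (-0.085 ± 0.081) had those of complexes II to V, at edgeR adjusted p of 0.841 to 0.937. The nuclear median within pools was -0.17, -0.16 and 0.094, and over all pools it was -0.090 without AB93 and 0.024 without AB41. In these 6 comparisons no member was called after any single mouse was left out.

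**Figure D2:**
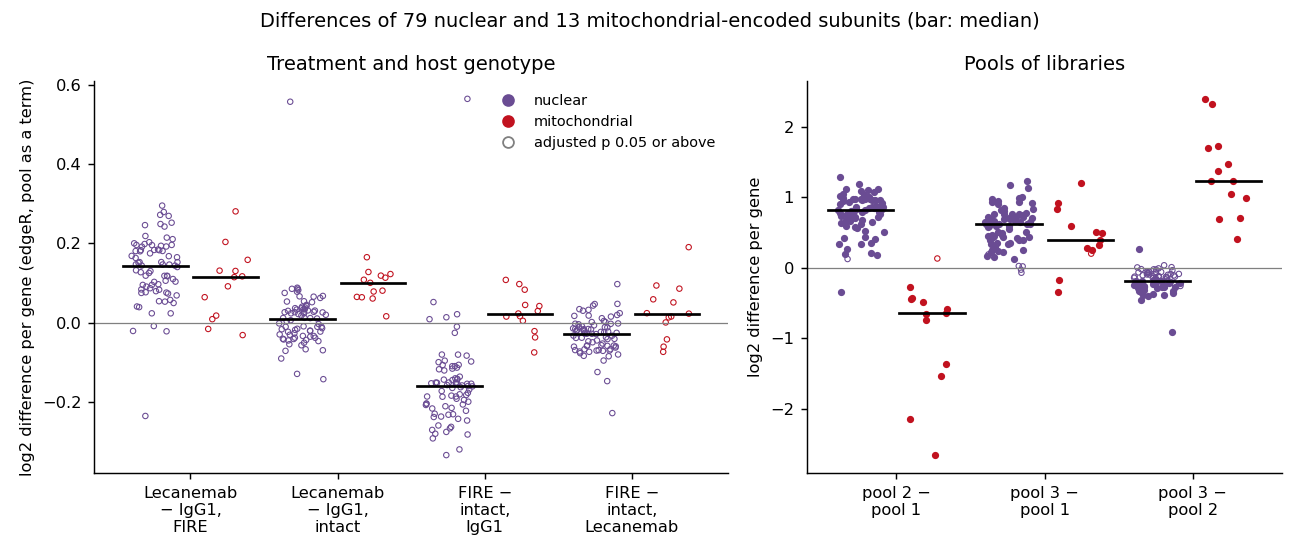
Log2 difference of every nuclear and mitochondrial-encoded member (1 point per gene, y axis) in the treatment and genotype comparisons and in the 3 pairs of pools (x axis), with a bar at the median and filled points for an edgeR adjusted p under 0.05. No point of the treatment and genotype comparisons is filled, and between pools the nuclear and the mitochondrial-encoded members lie on opposite sides of 0 in pool 2 against pool 1 (medians 0.83 and -0.64).

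Differences between pools were larger than any of these. The pools were prepared and sequenced as separate libraries, and the headers of libraries 1 and 2 carry an earlier Cell Ranger release than the others, so the mice, the preparation and the software cannot be told apart. The mitochondrial-encoded share was 6.61% ± 0.245 in pool 1 (SD, n = 10 mice, 6.14 to 6.97%), 4.12% ± 0.387 in pool 2 (n = 6, 3.36 to 4.48%) and 8.26% ± 0.492 in pool 3 (n = 10, 7.69 to 8.90%), with no overlap. The nuclear share was 1.25% ± 0.0555, 1.87% ± 0.125 and 1.77% ± 0.201, so pool 1 lay below the others, which overlapped. Mitochondrial-encoded transcripts outnumbered nuclear ones 5.30-fold in pool 1, 2.22-fold in pool 2 and 4.70-fold in pool 3. The median depth per cell, averaged over mice, was 3079 UMIs in pool 1, 4228 in pool 2 and 3807 in pool 3.

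Between pools 2 and 1 nuclear members of all complexes were higher in pool 2. Of 79, 77 were higher and 1, NDUFS1, was lower in pool 2 by edgeR, beside 62.5% of all genes called, 31.3% in each direction, with a median of 0.83 on the log2 scale over the members and -0.0055 over all genes. By complex 36 of 37 (complex I), 4 of 4, 7 of 8, 13 of 13 and 17 of 17 (complex V) were higher. SDHD, an anchor of succinate dehydrogenase, had 51.6, 58.3 and 64.5 CPM in pool 1 (lowest, median and highest), 95.4, 99.4 and 117 CPM in pool 2 and 82.3, 88.4 and 98.6 CPM in pool 3. Pool 1 did not overlap the others, and its difference from pool 2 was 0.84 ± 0.049 (edgeR adjusted p = 2.17e-13). NDUFS4, which completes the electron-accepting arm of complex I, ranged from 34.3 to 38.2 CPM in pool 1 and from 62.0 to 94.3 CPM in pool 2 (1.01 ± 0.066, edgeR adjusted p = 1.89e-12). COX6C of complex IV showed the largest rise of those named by the smallest p (1.29 ± 0.11, from 171 to 406 CPM on average), and COX4I1 (0.98 ± 0.077), NDUFB4 (1.12 ± 0.088), COX8A (1.09 ± 0.092), UQCR10 (0.97 ± 0.081), ATP5PO (0.92 ± 0.075) and NDUFB7 (0.97 ± 0.082) also rose. Of the 8 assembly factors 6 were higher and 1 lower. In pool 3 against pool 1, 74 of 79 nuclear members were higher and 0 lower (median 0.63, beside 52.2% of genes called, 26.8% higher and 25.5% lower), and in pool 3 against pool 2, 1 was higher and 31 lower (median -0.19, beside 31.2% of genes called, 15.7% higher and 15.5% lower). COX7A2L (-0.45 ± 0.11), UQCRFS1 (-0.39 ± 0.075), the iron-sulphur protein of complex III, and COX4I1 (-0.39 ± 0.078) were among those that were lower in pool 3. Scaling by library totals in place of TMM moved the median of all genes to -0.23 in pool 2 against pool 1 and to -0.15 in pool 3 against pool 1. Fewer nuclear members were then called higher in both comparisons.

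Since the nuclear members moved together between pools, their promoters were read for motifs of factors known to regulate respiratory genes. RefSeq promoters (GRCh38.p14, 250 bases before to 50 after the gene's start) were found for 66 of the 79 nuclear members. Searched on both strands, the NRF1 motif (GCGCA, any base, GCGC) was in 16 of the 66 (24.2%) and in 6.28% of all 27305 promoters, the ETS motif CCGGAAGT in 10 (15.2%) and in 4.44%, and the YY1 motif AAGATGGCG in 8 (12.1%) and in 1.85%. At least 1 of them was in 30 (45.5%), and in 11.5% of all promoters. UQCR11 and SDHD are the members that hold both an NRF1 and an ETS match, and the 250 bases before their starts are shown 5′ to 3′ on the gene's strand, with the matches in capitals.
UQCR11, chr19:1605463-1605712, minus strand: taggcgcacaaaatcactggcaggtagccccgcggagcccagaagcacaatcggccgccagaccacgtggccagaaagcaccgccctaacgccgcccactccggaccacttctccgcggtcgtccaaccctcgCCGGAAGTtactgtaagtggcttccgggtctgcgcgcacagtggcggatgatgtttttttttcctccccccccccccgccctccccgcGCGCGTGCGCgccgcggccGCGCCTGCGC
SDHD, chr11:112086623-112086872, plus strand: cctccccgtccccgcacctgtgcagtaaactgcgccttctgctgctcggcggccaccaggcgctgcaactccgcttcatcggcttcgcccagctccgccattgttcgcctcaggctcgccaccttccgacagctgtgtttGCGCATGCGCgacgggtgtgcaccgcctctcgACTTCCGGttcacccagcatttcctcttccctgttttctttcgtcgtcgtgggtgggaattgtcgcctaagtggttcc
In SDHD the NRF1 match begins at position -110 and the ETS match, read on the other strand, at -78 relative to the start, and in UQCR11 the ETS match begins at -117 and an NRF1 match ends at the start itself. No match of one motif overlapped a match of another in these sequences. A match describes the letters and not a bound site.

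The mitochondrial-encoded members differed between pools by amounts that were not shared among them. In pool 2 against pool 1, 0 were higher and 12 of 13 lower, with a median of -0.64. MT-ND6 had 99.2 to 126 CPM in pool 1 and 12.5, 16.2, 17.5, 18.4, 20.8 and 21.7 CPM in the 6 mice of pool 2, a log2 difference of -2.66 ± 0.12 (edgeR adjusted p = 3.56e-15). MT-ATP8 had 124 to 158 CPM in pool 1 and 27.4 to 35.0 CPM in pool 2 (-2.15 ± 0.091, edgeR adjusted p = 2.02e-15). MT-ND5 (-1.53 ± 0.11) and MT-ND4L (-1.37 ± 0.077) fell next most, and no value of pool 2 reached the range of pool 1 for any of these 4. MT-ND2 (-0.73 ± 0.061), MT-ND4 (-0.65 ± 0.084), MT-ATP6 (-0.64 ± 0.082), MT-CO1 (-0.58 ± 0.073), MT-CO3 (-0.48 ± 0.066), MT-ND1 (-0.45 ± 0.063), MT-CYB (-0.43 ± 0.069) and MT-ND3 (-0.27 ± 0.066) fell by less, and MT-CO2 did not pass the test (0.13 ± 0.080, edgeR adjusted p = 0.151). Genes that lie on 1 RNA thus differed, MT-ATP8 by 2.15 and MT-ATP6 by 0.64 in the size of the fall, and MT-ND4L by 1.37 and MT-ND4 by 0.65.

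Pool 3 stood above pool 1 for 10 of 13 mitochondrial-encoded members and below it for 2. MT-ND3 had 4296 to 5102 CPM in pool 1, 3562 to 4379 in pool 2 and 9739 to 12830 in pool 3, and rose by 1.21 ± 0.057 on the log2 scale (edgeR adjusted p = 1.25e-14). MT-ND1 (0.93 ± 0.054), MT-CO2 (0.83 ± 0.070) and MT-ATP6 (0.60 ± 0.070) followed. MT-ND6 (-0.34 ± 0.085, edgeR adjusted p = 0.00161) and MT-CO1 (-0.18 ± 0.063, edgeR adjusted p = 0.0201) were lower in pool 3. Against pool 2 all 13 were higher in pool 3, with a median of 1.24, from MT-CO1 (0.41 ± 0.073) to MT-ATP8 (2.40 ± 0.092). Without library 4, MT-ATP8 was lower in pool 3 than in pool 1 (-0.37), and MT-ND4L was -0.057.

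The same mice were also compared between separate libraries. In the 10 mice of pool 1, library 2 gave a mitochondrial-encoded share of 7.23% on average against 6.08% in library 1, and a nuclear share of 1.37% against 1.15%, both higher in 10 of 10 mice. MT-ND6 was 157 ± 10.9 CPM in library 1 and 79.1 ± 10.1 CPM in library 2 (SD, n = 10 mice), with no overlap, and lower in 10 of 10 mice, by a mean log2 difference of -0.99 ± 0.13 (SD). MT-CO1 was higher by 0.35. In the 10 mice of pool 3, MT-ATP8 was 218 ± 31.7 CPM in library 4 and 106 ± 14.8 CPM in library 5 (-1.04 ± 0.13), and MT-ND4L (-0.67), MT-ND5 (-0.56), MT-ND6 (-0.49) and MT-ND2 (-0.23) were lower in library 5 in 10 of 10 mice as well, while MT-CO1 differed by 0.073. MT-ATP8, MT-ND4L, MT-ND5 and MT-ND6 thus had the largest differences both between pools 2 and 1 and between libraries 4 and 5, where the mice were the same. Between libraries 1 and 2 the largest difference was that of MT-ND6, and MT-ATP8 (-0.14), MT-ND5 (-0.087) and MT-ND4L (0.18) differed by less than MT-CO1. What the preparation of a library contributed to the pool differences was not tested. Nuclear members were higher in library 2 than in library 1 for 74 of 79 (median 0.27), and in library 5 than in library 4 for 35 of 79 (median -0.0068).

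**Figure D3:**
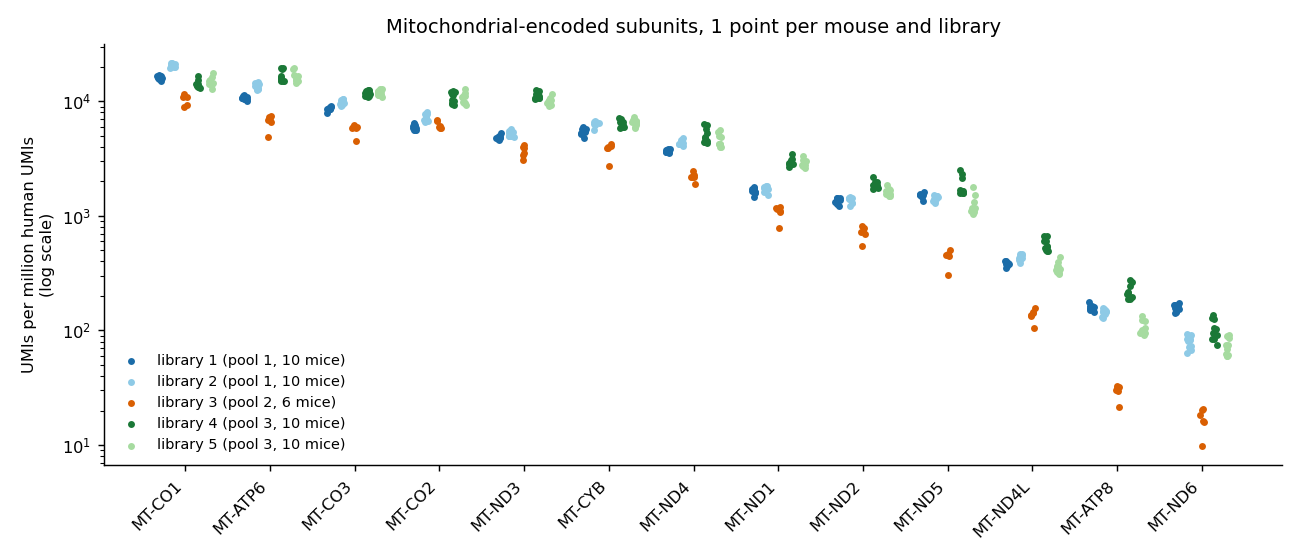
Level of the 13 mitochondrial-encoded members (CPM of the library, log axis) in order of falling mean level on the x axis, 1 point per mouse and library, coloured by library. MT-ATP8, MT-ND4L, MT-ND5 and MT-ND6 spread most between libraries, with MT-ATP8 at 218 CPM on average in library 4 and 106 CPM in library 5 for the same mice, while MT-CO1 differs by 0.073 on the log2 scale between these libraries.

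Nuclear member transcripts rose with depth per cell in every pool, and the medians of the mitochondrial-encoded ones differed by pool. When each cell was thinned to 1000 UMIs and the cells of a pool were divided into 4 equal groups by depth, the median number of nuclear member UMIs in pool 1 was 7, 11, 12 and 13 from the shallowest to the deepest group, and that of mitochondrial-encoded UMIs was 99, 59, 57 and 58. In pool 2 nuclear UMIs went from 14 in the shallowest to 20 in the deepest group, and in pool 3 from 14 to 19. Mitochondrial-encoded UMIs were 34, 36, 37 and 36 in pool 2 and 70, 73, 80 and 82 in pool 3. By these medians shallow cells of pool 1 held more mitochondrial-encoded and fewer nuclear transcripts per 1000. By the mean over cells, the shallowest group held the most mitochondrial-encoded UMIs in every pool. From shallowest to deepest the means were 116, 69.2, 58.5 and 58.8 in pool 1 and 56.0, 41.9, 41.2 and 39.4 in pool 2. In pool 3 they were 103, 77.8, 80.7 and 82.7.

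Respiratory chain transcripts were then followed across microglial states. Cells were called marker-high when their thinned counts of a marker list were in the top 10% of their mouse, and summed counts of these cells were compared with the other cells of the same mouse by edgeR with the mouse as a block, in 26 mice except where stated. No member is on a marker list, and the lists are ranges of a score and not cell types. A cell's UMIs form a closed total, so markers and members share it. The lists overlapped: 20.6% of plaque-response-high cells were also MHC class II-high and 26.8% of cytokine-high cells also immediate-early-high.

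**Figure D4:**
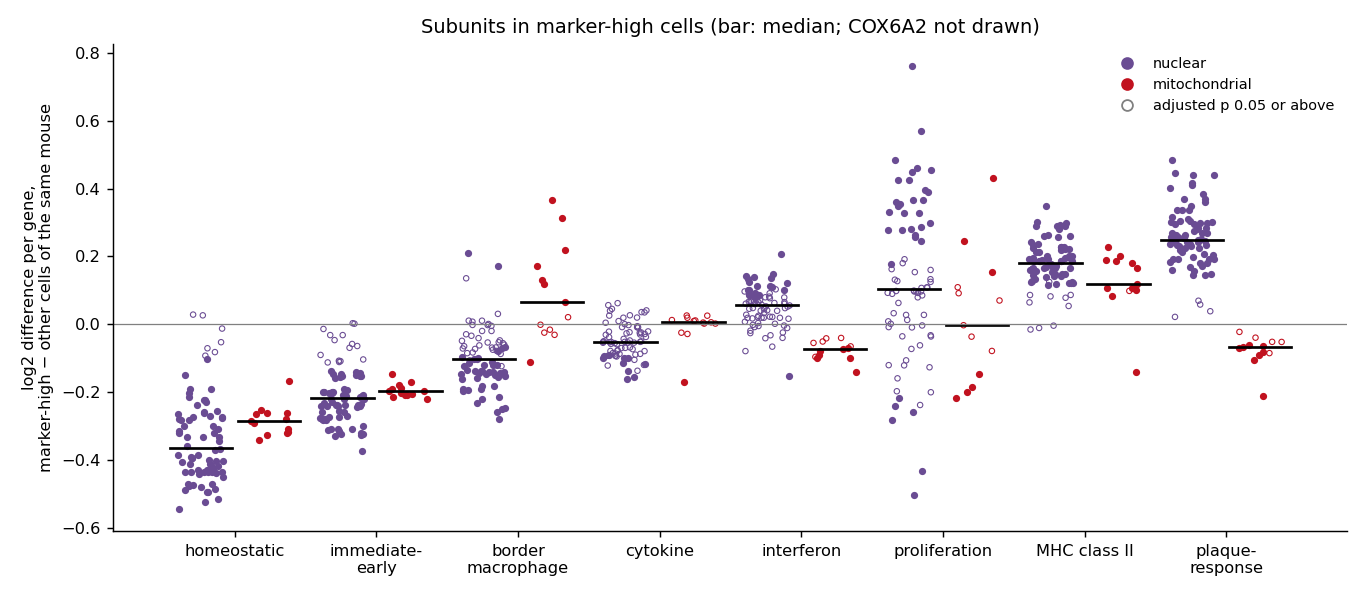
Log2 difference of each nuclear and mitochondrial-encoded member between marker-high cells and the other cells of the same mouse (y axis, 1 point per gene, COX6A2 not drawn) for 8 marker lists (x axis), with filled points for an edgeR adjusted p under 0.05 and a bar at the median. The nuclear medians run from -0.36 in homeostatic-high to 0.25 in plaque-response-high cells, and the mitochondrial-encoded medians from -0.29 to 0.12.

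Cells rich in the homeostatic markers, such as P2RY12 and CX3CR1, held fewer respiratory chain transcripts of both genomes. Of 78 nuclear members tested 71 were lower and 0 higher, and all 13 mitochondrial-encoded members were lower, beside 39.8% of genes called, 20.9% higher and 18.9% lower. The medians were -0.36 and -0.29 on the log2 scale, and 0.038 over all genes, and all complexes took part, with 31 members of complex I, 3 of complex II, 8 of complex III, 12 of complex IV and 17 of complex V lower. The nuclear share was 1.34% of human UMIs in homeostatic-high and 1.62% in other cells on average, lower in 26 of 26 mice. The mitochondrial-encoded share was 5.98% and 6.73%, lower in 22 of 26 mice but in only 3 of 6 mice of pool 2. ATP5F1E ran from 586 over a median of 1007 to 1469 CPM over mice in homeostatic-high cells and from 849 over a median of 1500 to 2204 CPM in the others, lower in 26 of 26 mice although the ranges overlapped (-0.49 ± 0.024, edgeR adjusted p = 1.5e-36). COX6C (-0.52 ± 0.034), UQCRB (-0.49 ± 0.028) and COX7C (-0.47 ± 0.026) fell alike. Among the mitochondrial-encoded members MT-ND2 (-0.34 ± 0.024) and MT-CO2 (-0.32 ± 0.021) fell more than MT-CO1 (-0.25 ± 0.021) and MT-ND6 (-0.17 ± 0.045, lower in 18 of 26 mice). The assembly factor NDUFAF5 was higher (0.25 ± 0.094, edgeR adjusted p = 0.0286) and 4 other assembly factors lower. Homeostatic-high cells had a median of 2960 UMIs and the others 3491, and scaling by library totals moved the median of all genes to 0.14 and the counts to 63 nuclear and 12 mitochondrial-encoded members lower. With that scaling 11.9% of all genes were lower and 39.1% higher.

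Cells rich in plaque-response markers, such as LPL, GPNMB and CD9, showed nuclear and mitochondrial-encoded members on opposite sides. Of 79 nuclear members 75 were higher and 0 lower (median 0.25), and 0 of 13 mitochondrial-encoded members were higher and 8 lower (median -0.067), beside 47.7% of genes called, 24.2% higher and 23.5% lower. The mitochondrial-encoded count was 3 lower with cells beyond 2.5 median absolute deviations of UMIs, genes or mitochondrial share left out (median -0.028), 2 lower with the top 5% of cells, and 4, 1 and 1 lower in pools 1, 2 and 3 alone, with 0 higher in each. In the same order, 21.9, 23.5, 17.1, 5.84 and 8.51% of all genes were lower. Complexes III, IV and V rose in full (8 of 8, 13 of 13 and 17 of 17), complex I in 34 and complex II in 3 members. The 13 of complex IV and the 75 include COX6A2, which became a member only through these cells, so its rise is no independent count. COX6C, a small subunit of complex IV, ran from 201 over a median of 424 to 735 CPM in plaque-response-high cells and from 140.5 over a median of 326 to 519 CPM in the others, and was higher in 26 of 26 mice (0.48 ± 0.034, edgeR adjusted p = 2.53e-19). ATP5MC3, one of the genes for the c subunit of ATP synthase, rose from a mean of 222 to 299.9 CPM (0.45 ± 0.033), NDUFB2 from 274 to 369 CPM (0.44 ± 0.034) and NDUFA4 from 368 to 463 CPM (0.35 ± 0.031). COX5A (0.41 ± 0.033), COX7B (0.40 ± 0.032), NDUFS5 (0.38 ± 0.033), COX7A2 (0.37 ± 0.033) and ATP5F1E (0.34 ± 0.027) rose as well. MT-ND6 fell (-0.21 ± 0.045, edgeR adjusted p = 8.9e-05, higher in 4 of 26 mice), as did MT-CO1 (-0.10 ± 0.025, edgeR adjusted p = 0.000333), MT-ND2 (-0.090 ± 0.027) and MT-ND4L (-0.082 ± 0.029), and MT-CO2 (-0.039 ± 0.024, edgeR adjusted p = 0.187) and MT-CYB (-0.022 ± 0.025, edgeR adjusted p = 0.483) did not pass. As shares of human UMIs, the mitochondrial-encoded members stood at 5.99% in plaque-response-high and 6.76% in other cells, lower in 26 of 26 mice, and the nuclear ones at 1.73% and 1.58%, higher in 25 of 26. Median depth was 3706 and 3398 UMIs. Library totals moved the median of all genes to -0.15, and 56 nuclear members were then higher and 1 lower and all 13 mitochondrial-encoded members lower. With that scaling 12.6% of all genes were higher and 42.7% lower.

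COX6A2, the muscle-type isoform of complex IV, had the largest log2 difference of the members tested in these cells. Over all cells of the 26 mice it had a UMI in 286 of 4997 plaque-response-high cells (5.72%) and in 366 of the other cells (0.813%). The other cells alone lay below the 1% limit, so COX6A2 became a member through the cells where it is high. Its rank among the members and its p are not independent of that choice. As a level, that was 564 UMIs or 25.5 CPM (exact Poisson 95% interval 23.4 to 27.7) against 459 UMIs or 2.68 CPM (2.44 to 2.94), where the intervals cover counting error only. By mouse it ran from 0 CPM (AB39) over a median of 21.0 to 66.8 CPM (AB79) in plaque-response-high cells and from 0.85 over 2.47 to 5.43 CPM in the others. It was higher in plaque-response-high cells of 25 of 26 mice, with AB39 as the exception at 0 UMIs in 160 cells, and the log2 difference was 3.31 ± 0.13 (edgeR adjusted p = 5.89e-31). The direction held in 10 of 10 mice of pool 1, 6 of 6 of pool 2 and 9 of 10 of pool 3. In barcodes of mouse cells, taken as a measure of free RNA, COX6A2 had 4 UMIs among 314585 human UMIs in 3236 cells, which is 12.7 CPM with an interval of 3.46 to 32.6. That interval rests on counting error alone and lies above the level of the other human cells and around that of the plaque-response-high cells, and the part of free RNA in the COX6A2 values was not tested. At most 0.124% of those cells, with a median of 34 to 154 human UMIs by library, held one. By group the median in plaque-response-high cells was 29.5 CPM in IgG1-treated FIRE mice (12.6 to 66.8), 22.9 in Lecanemab-treated FIRE mice (17.0 to 35.3), 15.6 in IgG1-treated FIRE-intact mice (0 to 38.8) and 18.3 in Lecanemab-treated FIRE-intact mice (12.7 to 58.1), all overlapping. Its general counterpart COX6A1 differed by 0.30 ± 0.029. In homeostatic-high cells COX6A2 had a UMI in 21 of 4997 cells (0.42%), 1.56 CPM against 5.63 CPM in the other cells.

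Mitochondrial-encoded members fell along the plaque-response markers, while nuclear members rose up to the class of 5 to 7 marker UMIs. In the last class nuclear members were lower than in the class before. With 0, 1, 2, 3 to 4, 5 to 7 and 8 or more marker UMIs among 1000, nuclear members took 14.5, 14.9, 15.1, 15.6, 16.3 and 15.7 UMIs per 1000 on average over mice, and mitochondrial-encoded members 80.8, 73.3, 68.0, 64.5, 57.6 and 52.8. COX6A2 went from 1.62 over 2.42, 3.46, 9.23 and 21.3 to 48.2 CPM. The last class held 721 cells in 15 mice, and the other classes held cells of 26. Its means thus cover fewer mice than those of the class before, and levels differed between pools. What this change of mice contributed was not tested. Median depth rose along these classes from 3320 to 4558 UMIs, and nuclear UMIs per 1000 also rose with depth within pools. The part of depth in this course was not tested. With homeostatic markers, from 0 to 2 up to 20 or more, nuclear members went from 17.2 down to 11.5, mitochondrial-encoded members from 113 to 50.7 and COX6A2 from 21.4 to 0.61 CPM. Median depth was 3765 UMIs in the first and 2603 in the last of these classes. The first of them averaged 26 mice and the last 21. Marker UMIs and member UMIs come out of the same 1000, so part of a fall with rising markers is built into the count.

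**Figure D5:**
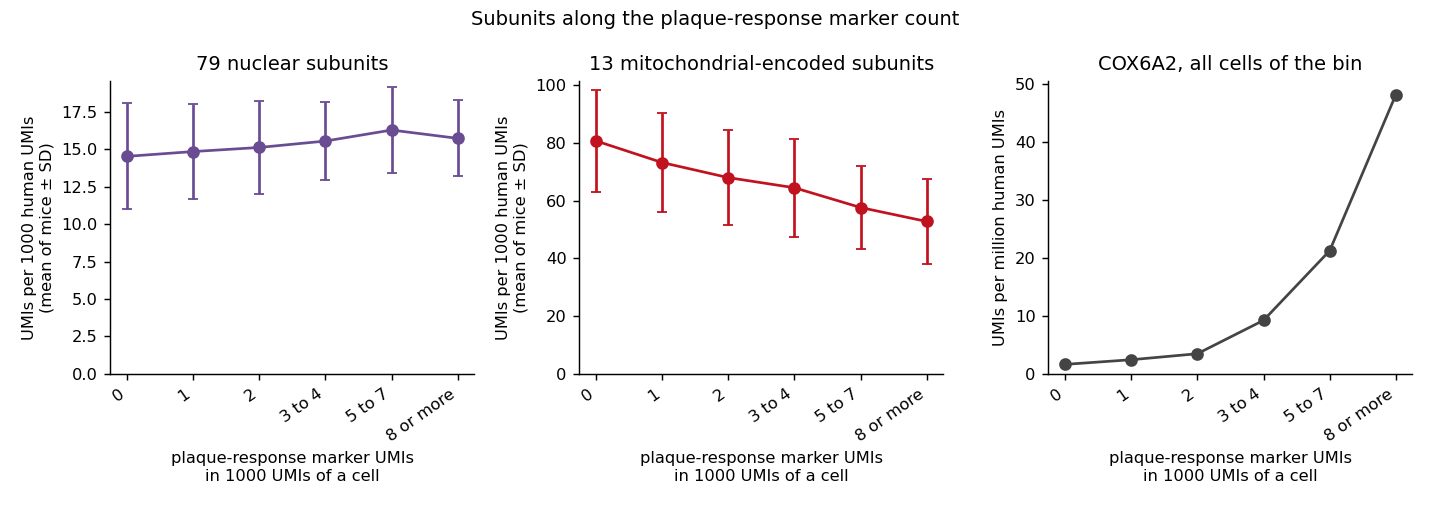
Nuclear and mitochondrial-encoded member UMIs per 1000 (mean and SD over mice) and COX6A2 (CPM over all cells of a class) by the number of plaque-response marker UMIs among 1000 per cell (x axis, 0 to 8 or more). Mitochondrial-encoded UMIs fall from 80.8 to 52.8 per 1000 while COX6A2 rises from 1.62 to 48.2 CPM, and nuclear UMIs stay between 14.5 and 16.3. The last class averages 15 mice and the others 26.

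MHC class II-high cells, marked by genes such as HLA-DRA and CD74, had more nuclear member transcripts, and more mitochondrial-encoded ones in the TMM-scaled fit only. Of 79 nuclear members 69 were higher and 0 lower (median 0.19), and 11 of 13 mitochondrial-encoded members were higher and 1 lower (median 0.12), beside 34.6% of genes called, 19.1% higher and 15.5% lower. UQCRB ran from 397 over a median of 624 to 1352 CPM in these cells and from 277 over a median of 531 to 1125 CPM in the others, higher in 26 of 26 mice (0.35 ± 0.028, edgeR adjusted p = 1.76e-15). ATP5MC2 (0.30 ± 0.027), COX7C (0.29 ± 0.027), MT-ND2 (0.23 ± 0.028) and MT-ND3 (0.20 ± 0.025) rose, as did COX6A2 (0.74 ± 0.20). COX6A2 became a member through plaque-response-high cells, and 20.6% of those are also in this set. MT-ND6 fell (-0.14 ± 0.047, edgeR adjusted p = 0.016), and MT-ATP8 did not pass (0.099 ± 0.042, edgeR adjusted p = 0.0628). The assembly factors NDUFAF5 (-0.47 ± 0.11) and NDUFAF7 (-0.27 ± 0.092) were lower. The direction of the mitochondrial-encoded members depended on the scaling. With library totals the median of all genes moved to -0.14, 26 nuclear members were higher and 3 lower, and 4 mitochondrial-encoded members were higher and 2 lower, with a median of -0.012. Of all genes 8.74% were then higher and 41.7% lower. As shares of human UMIs the mitochondrial-encoded members stood at 6.67% in both parts, higher in 10 of 10 mice of pool 1, 3 of 6 of pool 2 and 3 of 10 of pool 3. Per 1000 thinned UMIs they took 69.9 in MHC class II-high and 72.7 in other cells on average, higher in 10 of 26 mice. The cells differed in depth, with medians of 3877 and 3383.5 UMIs.

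Immediate-early-high cells, with FOS, JUN and EGR1, also held fewer transcripts of both genomes. Of 78 nuclear members 63 were lower and 0 higher (median -0.22), and all 13 mitochondrial-encoded members were lower (median -0.20), beside 24.4% of genes called, 12% higher and 12.4% lower. ATP5F1E ran from 729 over a median of 1107 to 1561 CPM against 817 over a median of 1444 to 2125 CPM, lower in 26 of 26 mice (-0.32 ± 0.027, edgeR adjusted p = 1.43e-16). NDUFB2 (-0.37 ± 0.035), UQCR11 (-0.33 ± 0.033) and MT-CO2 (-0.22 ± 0.030) fell, while the assembly factor NDUFAF4 (0.26 ± 0.066) and NDUFV2-AS1, an antisense gene whose count is uncertain if reads were assigned without strand (0.60 ± 0.16, edgeR adjusted p = 0.00191) rose. In pool 1 alone 39 members were called, beside 12.5% of all genes, and the nuclear median was -0.11, and in pool 2 alone the median was -0.30.

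Cytokine-high cells, with CCL3, CCL4 and IL1B, differed less. Of 79 nuclear members 10 were lower and 0 higher (median -0.054), and of the mitochondrial-encoded members MT-ND6 alone was lower (-0.17 ± 0.047, edgeR adjusted p = 0.00701), beside 13.9% of genes called, 8.28% higher and 5.64% lower. UQCR10 (-0.14 ± 0.030, edgeR adjusted p = 0.000358), NDUFS3 (-0.16 ± 0.043), NDUFA4 (-0.11 ± 0.029), ATP5F1E (-0.092 ± 0.025) and the inhibitor ATP5IF1 (-0.10 ± 0.032) fell, and NDUFAF4 rose (0.22 ± 0.063). The pools did not go the same way. In pool 1 alone 3 nuclear and 11 mitochondrial-encoded members were higher and 0 lower (nuclear median 0.027), while in pool 2 alone 1 nuclear member was lower and in pool 3 alone 9 were. Of all genes 6.37% were higher in pool 1, and 0.415% and 1.31% were lower in pools 2 and 3. With library totals 53 nuclear members were lower.

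Interferon-high cells, with ISG15 and MX1, had a few more nuclear and a few less mitochondrial-encoded transcripts. Of 79 nuclear members 19 were higher and 1, NDUFS1 (-0.15 ± 0.052), lower (median 0.056), and 7 of 13 mitochondrial-encoded members were lower and 0 higher (median -0.072), beside 12.4% of genes called, 8.3% higher and 4.13% lower. MT-CYB had the smallest p (-0.14 ± 0.022, edgeR adjusted p = 2.76e-06, lower in 21 of 26 mice), and ATP5F1C (0.15 ± 0.034, edgeR adjusted p = 0.00177), NDUFB7 (0.14 ± 0.033) and NDUFA9 (0.21 ± 0.057) rose. With library totals 4 nuclear members were higher and 3 lower, beside 5.75% of all genes higher and 10.46% lower. The balance of the nuclear members thus rests on the scaling. In pools 1, 2 and 3 alone 1, 5 and 3 members were called, beside 5.42, 2.86 and 3.03% of all genes.

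Proliferation-high cells, with MKI67 and TOP2A, were few, with 454 cells in the 14 mice that had at least 20. Of 78 nuclear members 27 were higher and 6 lower (median 0.10, beside -0.11 over all genes), and of the mitochondrial-encoded members 3 were higher and 4 lower, beside 36.0% of genes called, 15.6% higher and 20.3% lower. COX8A ran from 173 over a median of 395 to 907 CPM in these cells and from 157 over a median of 239.9 to 444 CPM in the others, higher in 13 of 14 mice (0.76 ± 0.079, edgeR adjusted p = 8.09e-13). UQCRQ (0.57 ± 0.075, 14 of 14 mice) and NDUFB1 (0.45 ± 0.079) rose, and NDUFA5 (-0.50 ± 0.13), SDHC (-0.43 ± 0.12) and UQCRB (-0.26 ± 0.068) fell, so members of 1 complex moved in opposite directions. MT-ND6 (0.43 ± 0.11), MT-CO2 (0.25 ± 0.053) and MT-ND5 (0.15 ± 0.059) rose, and MT-ND2 (-0.22 ± 0.065), MT-ND3 (-0.20 ± 0.056), MT-ND1 (-0.19 ± 0.063) and MT-CYB (-0.15 ± 0.054) fell. These cells were deeper, with a median of 5613 UMIs against 3417. With every cell thinned to 1000 UMIs the nuclear median was -0.10, with 2 members higher and 11 lower beside a median of -0.36 over all genes, among 6965 genes tested in place of 11086, and the cause was not tested. Of those genes 5.20% were higher and 20.3% lower.

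Border macrophage-high cells, with MRC1 and CD163, had fewer nuclear transcripts, and their mitochondrial-encoded members differed by pool. Of 78 nuclear members 2, NDUFS1 (0.21 ± 0.059) and SDHA (0.17 ± 0.062), were higher and 43 lower (median -0.10), and 7 of 13 mitochondrial-encoded members were higher and 1 lower (median 0.067), beside 43.6% of genes called, 22.6% higher and 21.0% lower. Of the mitochondrial-encoded members 8 were higher and 0 lower in pool 1 alone, 0 were called in pool 2 (median -0.027), 2 were higher and 3 lower in pool 3, and with the top 20% of cells 3 were higher and 2 lower. In the same order, 28.6, 10.0, 22.2 and 35.4% of all genes were called. MT-ND2 ran from 706 over a median of 1867 to 2655 CPM in these cells and from 682 over a median of 1265 to 2068 CPM in the others, higher in 26 of 26 mice (0.37 ± 0.043, edgeR adjusted p = 7.31e-10). MT-ND1 (0.31 ± 0.040), MT-ATP8 (0.22 ± 0.048), MT-ND4L (0.17 ± 0.039), MT-ND4 (0.13 ± 0.029), MT-ND5 (0.12 ± 0.034) and MT-CO1 (0.067 ± 0.020) rose and MT-ND6 (-0.11 ± 0.044) fell. COX7C (-0.23 ± 0.029, lower in 24 of 26 mice) and NDUFA2 (-0.25 ± 0.034) fell. Differences between one marker-high set and another were not tested.

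Genes that serve the same pathway were read from fixed lists. In plaque-response-high cells 55 of 79 mitochondrial ribosome genes were higher and 1 lower, and 13 of 15 glycolysis genes were higher and 0 lower, with GAPDH at 0.38 ± 0.029 and LDHA at 0.48 ± 0.043, and the 7 carriers and channels of the mitochondrial membranes all rose. Of all genes 24.2% were higher and 23.5% lower in these cells. The electron carrier CYCS rose (0.34 ± 0.035), as did TMEM70, an assembly factor of ATP synthase (0.69 ± 0.043). In homeostatic-high cells 49 of 79 mitochondrial ribosome genes and 10 of 13 glycolysis genes were lower and 0 higher in either list, with GAPDH at -0.44 ± 0.026 and the ADP/ATP carrier SLC25A6 at -0.56 ± 0.034. There 18.9% of all genes were lower and 20.9% higher. In immediate-early-high cells 8 of 14 glycolysis genes were lower and 2 higher, beside 12.4% of all genes lower and 12% higher. CYCS rose there (0.22 ± 0.039). Proliferation-high cells had 10 of 15 glycolysis genes higher and 0 lower (LDHA, 1.10 ± 0.095), beside 15.6% and 20.3% of all genes. They had a rise of UQCC2, an assembly factor of complex III (1.17 ± 0.10). SCO2, which delivers copper to complex IV, rose in interferon-high (0.76 ± 0.085) and cytokine-high cells (0.48 ± 0.076), and OGDH of the tricarboxylic acid cycle in border macrophage-high cells (0.71 ± 0.11). Between pools 2 and 1, 71 of 80 mitochondrial ribosome genes were higher and 2 lower and 14 of 17 glycolysis genes higher, beside 31.3% of all genes in each direction. Of 18 genes that maintain and express the mitochondrial genome 5 were higher and 6 lower, near that background, with LRPPRC, which stabilises mitochondrial RNA, at -0.42 ± 0.060 and its partner SLIRP at 0.89 ± 0.078. Treatment and genotype called no gene of these lists in any of the 6 comparisons by edgeR. The glycolysis median for Lecanemab against IgG1 was 0.19 in FIRE mice (15 of 17 positive) and 0.12 in FIRE-intact mice (16 of 17).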

How the data were processed

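Single-cell RNA of human microglia sorted from mouse brain was measured in 5 droplet libraries with hashtag antibodies. The authors aligned reads to a joint human and mouse reference (GRCh38 and mm10) with Cell Ranger (6.1.2 in the submitters' processing notes) and deposited UMI counts per gene and barcode, with hashtag counts beside them, and their notes name Seurat 4.2.3. Tissue was dissociated with actinomycin D, an inhibitor of transcription. From these counts, human cells with at least 1000 human UMIs and at most 5% mouse UMIs were kept, and hashtags were assigned with HTODemux (Seurat 5.3.0, quantile 0.99), which left 49989 singlets after 7497 doublet and 408 negative calls. Mice were placed in groups by the labels alone. The labels hold fewer IgG1-treated FIRE mice than the study describes, and leaving out any single mouse called no member by treatment or genotype.

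Counts were summed per mouse and fitted in edgeR 4.0.16 (R 4.3.3) by quasi-likelihood with group and pool, TMM scaling and filterByExpr, over all 4 groups, with Benjamini-Hochberg adjustment over all 13699 genes tested, at 0.05. All 103 members passed the filter. Marker-high cells were the top 10% of a mouse's cells by summed log thinned marker counts with at least 2 marker UMIs, and were fitted against the other cells of the same mouse with mouse as a block, where both parts held at least 20 cells. The other cells of a mouse include cells close to the limit. Gene levels by mouse are TMM-scaled CPM, and levels by library or class are plain CPM. An SE is the log2 difference divided by the root of its F. Human UMIs per mouse ran from 3502274 to 12763974, and a mouse is the replicate. The genes named were the 13 mitochondrial-encoded members, up to 10 members past the threshold with the smallest p per direction or, where fewer passed, the smallest p of each complex, the isoform sets, the highest and lowest nuclear member of each complex, and of each related list up to 3 genes past the threshold. Members named beside these were chosen after their values were seen. Alternatives were DESeq2 1.42.0, limma-voom (limma 3.58.1), other scalings, filters on cells and genes, no pool term, other marker limits, thinning, single pools, and fits without 1 mouse or without library 4. The members, lists and marker sets were chosen with earlier results of these data known. The fits were tested on simulated data. Intervals and limits cover counting error only. Motifs were searched in RefSeq promoters, and mitochondrial sequence was read from GRCh38.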

Additional observations from a re-analysis of the deposited data

Results flagged for a closer look

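In groups and pools of 4 to 10 mice, a value was singled out when its gap to the nearest mouse was large against the whole range of its group (Dixon's test at 95%). Chance does this in about 1 in 20 groups, and 9 of 147 groups tested held such a value. In pool 2, AB38 had the lowest mitochondrial-encoded share, 3.36% of human UMIs against 4.15% in the next mouse, and the highest nuclear complex III share, 0.294% against 0.249%. The same mouse had the highest COX6A2 level among IgG1-treated FIRE-intact mice, 10.3 CPM against 5.32 CPM. In pool 1, AB13 was lowest for MT-ND1 (1340 against 1506 CPM), MT-ND2 (1097 against 1217 CPM) and MT-ND5 (1195 against 1321 CPM). In pool 2, AB56 was lowest for MT-CO1 at 9456 CPM against 11123 CPM. AB40 was lowest for MT-ATP8 among Lecanemab-treated FIRE-intact mice, 32.4 CPM against 140 CPM, and AB57 for MT-ND6 among Lecanemab-treated FIRE mice, 21.7 CPM against 94.8 CPM. Both are the only mice of pool 2 in their groups.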

How the results depend on the processing

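Over 372 results for single genes, 8542 values under other settings gave 8067 that stayed the same, 302 that no longer passed, 66 that newly passed, 84 that moved and 23 that reversed. A value stayed the same if it kept its side of the threshold and its direction. Where neither value passed, a change of sign by less than 1 SE was counted there too. Without the pool term the mitochondrial-encoded medians for Lecanemab were 0.23 in FIRE, 0.28 in FIRE-intact and 0.28 over both genotypes, and the nuclear median of FIRE against FIRE-intact under IgG1 was 0.020. Without the filter on low counts 281 genes were called there, 1 of them a member, in place of 0. Leaving out single mice moved the FIRE nuclear median from 0.094 to 0.19 and the mitochondrial-encoded one from 0.078 to 0.16.

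With library totals the nuclear and mitochondrial-encoded medians were 0.60 and -0.85 for pool 2 against pool 1 and 0.47 and 0.24 for pool 3 against pool 1, and with cells of at least 2000 UMIs the mitochondrial-encoded median of pool 2 against pool 1 was -0.54. Without library 4, MT-ATP8 (-0.37) and MT-ND4L (-0.057) reversed in pool 3 against pool 1.

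In homeostatic-high cells the medians were -0.30 and -0.41 with thinned cells, -0.25 and -0.17 with library totals, and the nuclear one -0.30 in pool 1 alone. MT-ND6 was 0.098 in pool 2 alone. In plaque-response-high cells the mitochondrial-encoded median was -0.20 thinned, library totals gave 0.12 and -0.19, pool 2 alone called 34 members (beside 14.3% of all genes), and MT-ATP6 was 0.014 in pool 1 alone. Interferon-high cells gave 11 calls thinned and 1, 5 and 3 in the pools alone. All genes were called at 7.20% thinned and at 5.42, 2.86 and 3.03% in the pools. Cytokine-high cells gave 8 calls with the top 5% and 31 with the top 20%, beside 11.2 and 17.6% of all genes. They gave 5 thinned and 60 with library totals (MT-CO1 -0.058), beside 8.10 and 25.1%. In pool 1 alone their nuclear median was 0.027, with ATP5F1E 0.021, MT-ND2 0.079, MT-ND4 0.094, NDUFA4 0.0030, NDUFB2 0.068, NDUFS3 0.010 and UQCR11 0.017, and pool 2 alone gave 1 call, beside 3.40% of all genes. MHC class II-high cells gave 42 calls thinned (MT-CO1 -0.016), 38 with library totals (medians 0.056 and -0.012, MT-ATP6 -0.031, MT-CO1 -0.049, MT-CO3 -0.026, MT-CYB -0.012, MT-ND5 -0.026), 10 in pool 2 and 33 in pool 3 alone, and a nuclear median of 0.26 in pool 1. Of all genes 22.3% were called thinned, 50.4% with library totals, 7.15% in pool 2 and 12.3% in pool 3. Immediate-early-high cells gave 39 calls (beside 12.5% of all genes) and a nuclear median of -0.11 in pool 1 and a median of -0.30 in pool 2. Proliferation-high cells gave 19 calls and a nuclear median of -0.10 thinned (MT-ND5 -0.089), a median of 0.20 with library totals, 14, 23 and 9 calls in the pools alone, 0.22 in pool 2 (MT-ND5 -0.0062) and UQCRC2 at 0.095 in pool 3. All genes were called there at 25.5% thinned and at 21.0, 14.0 and 17.4% in the pools. Border macrophage-high cells gave 24 calls thinned, 28, 7 and 34 in the pools alone, and in pool 2 a mitochondrial-encoded median of -0.027 (MT-ATP8 -0.14, MT-ND5 -0.020). The shares of all genes called were 24.5% thinned and 28.6, 10.0 and 22.2% in the pools. The cause was not tested in any of these.

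Scrublet called 1 cell, so leaving out doublets was run on the 5% highest scores (3025 cells). This, a narrower border macrophage filter (2264 cells in place of 24040) and the single pools were chosen after seeing the data. No paired analysis was possible because the labels give each mouse a name of its own and no number shared between groups. COX6A2 rests on few UMIs per mouse.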
